A study of Homo sapiens with 6 samples.

Results

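SAMD9, SAMD9L and 5 genes of the Schlafen family (SLFN5, SLFN11, SLFN12, SLFN12L and SLFN13) were followed in MV4-11 cells with and without a knockdown of ENO1. MV4-11 is an established human acute myeloid leukaemia line, and ENO1 encodes the glycolytic enzyme alpha-enolase. The 7 genes were found by their current symbols among the 23227 rows of the count table, where each had 1 row. RNA sequencing gave 3 libraries for each of 2 groups. The controls were described as untreated and carry the name NC, which is not spelled out, and nothing says whether a control hairpin was used. The other group carried the ENO1 knockdown, and its column names give the name of a single hairpin, so no other hairpin could be compared with it. The genotype label was WT in both groups, and time in culture is not given. Nothing in the labels ties the libraries to separate cultures, so the tests measure the spread among these libraries alone, which may be technical. The 7 genes were chosen by family, with the knockdown-to-control differences in count of these same libraries already known. Their differences are therefore given as a description, with standard errors and without p-values.

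SAMD9 and SAMD9L are large cytoplasmic proteins, encoded side by side, that stop protein synthesis in infected cells. SAMD9 is known to cut the tRNA for phenylalanine, poxviruses carry proteins that disarm it, and inherited overactive forms of either gene cause marrow failure and myeloid disease with loss of the chromosome that carries them. Schlafen proteins act in a related way. SLFN11 and SLFN13 are nucleases that cut tRNA, SLFN11 also blocks replication in cells with damaged DNA, SLFN12 becomes an active tRNA nuclease when it binds the phosphodiesterase PDE3A, and SLFN5 is known as a nuclear cofactor that acts on transcription of interferon-induced and viral genes. Several of these genes are known to be induced by interferon, whose response element in promoters carries paired GAAA blocks.

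On GRCh38 with the GENCODE 29 annotation, SAMD9 lies on chromosome 7 from 93099513 to 93118023 and SAMD9L from 93130055 to 93148369, both on the minus strand. The Schlafen genes lie together on chromosome 17. SLFN5 runs from 35243036 to 35273655 on the plus strand. SLFN11 (35350305 to 35373701), SLFN12 (35411060 to 35433283), SLFN13 (35435096 to 35448837) and SLFN12L (35464249 to 35537861) are on the minus strand. All 7 are annotated as protein coding. The longest annotated coding sequences hold 1589 codons for SAMD9 and 1584 for SAMD9L, against 578 for SLFN12, 617 for SLFN12L, 891 for SLFN5, 897 for SLFN13 and 901 for SLFN11.

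The coding sequences of SAMD9 and SAMD9L were identical at 72.2% of their aligned bases. Within the Schlafen genes the closest pairs were SLFN12 with SLFN12L, at 87.2%, and SLFN11 with SLFN13, at 87.0%. The other pairs were between 62.3 and 70.9%. Reads can be shared only where sequences are nearly the same. Of the 50-base stretches of SLFN11 transcripts 9.69% also occurred in transcripts of another gene, all of them in SLFN13, and the share was 7.03% for SLFN13, 8.46% for SLFN12L and 1.32% for SLFN12. It was 0.2% for SLFN5, and no stretch of SAMD9 or SAMD9L was shared. An antisense transcript overlaps 7.69% of the exon bases of SLFN12L, and the counting strand is not given in the sources used here. Both strands were searched, and 322 of the 406 shared stretches of SLFN12L occurred in this antisense transcript. SLFN12 and SLFN12L had 49 stretches in common.

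Promoter windows, from 250 bases before to 50 bases after the RefSeq start on GRCh38.p14, were available for SAMD9, SAMD9L, SLFN11, SLFN12 and SLFN12L. SLFN5 and SLFN13 had no entry. The windows were searched on both strands for the core of the interferon response element, a GAAA block followed by any 2 bases and a second GAAA block. The stretches below show the best match upstream of the start for the 5 genes with a window, 5′ to 3′ on the minus strand, with the match in capitals.
SAMD9: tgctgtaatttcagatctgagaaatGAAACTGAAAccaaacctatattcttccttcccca
SAMD9L: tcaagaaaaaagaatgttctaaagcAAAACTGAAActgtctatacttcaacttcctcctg
SLFN12L: agaattctgaGAAATGGAAActttaaaaag
SLFN11: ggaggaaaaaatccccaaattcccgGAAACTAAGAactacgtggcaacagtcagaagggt
SLFN12: aggatggggagggccggAAAACAGAAAagg

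The stretches are chr7:93118081-93118140 for SAMD9, chr7:93148399-93148458 for SAMD9L, chr17:35537785-35537814 for SLFN12L, chr17:35373763-35373822 for SLFN11 and chr17:35433175-35433204 for SLFN12. SAMD9 held the full motif at positions -136 to -127 from the RefSeq start, and SLFN12L at -126 to -117, which lies inside the gene as GENCODE draws it. The best match of SAMD9L, at -48 to -39, differed from the motif by G1A, with positions counted from 1 at the first base of the 10-base motif. SLFN12, near undetected in both groups, had its best match at -13 to -4, inside the gene as GENCODE draws it, and this differed by G1A too. That of SLFN11, at -176 to -167, differed by G7A and A9G. Over all 27305 promoter windows 3.65% held the full motif, as did 2 of the 5 windows of members. A second motif, TTCNNNGAA, where N is any base and which STAT proteins can bind, was found in SLFN11 and SLFN12L and in 7.88% of all windows. The third, CCGGAA, the core bound by ETS factors, was found in SLFN11 and SLFN12 and in 17.6% of all windows. In SLFN11 the STAT and ETS matches overlapped each other and the stretch in capitals. A match describes the letters only.

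The libraries held between 20044602 and 26373960 counts. Levels are given as CPM, the counts of a gene scaled to a common library total after TMM scaling, which adjusts totals for differences in composition. ENO1 itself went from 3260 ± 22.6 CPM to 102 ± 1.25 CPM with the knockdown (SD, n = 3). Replicate 2 of the controls and replicate 3 of the knockdown lay somewhat away from the rest of their groups, and results that move without them are given with that value. Myeloid genes of the line were present, with FLT3 at 808 ± 10.2 CPM and CD33 at 126 ± 4.37 CPM in the controls (SD, n = 3), while the monocyte marker CD14 was near 0 in both groups. These markers moved along with the groups, as 5 of the 10 tested rose and 4 fell, beside 29.4 and 30.5% of all tested genes. Their summed level ran from 1970 to 1990 CPM in the controls and from 1880 to 1900 CPM in the knockdown cells. LYZ, the lysozyme gene, fell from 274 ± 3.43 to 51.4 ± 1.01 CPM, and ITGAM, an integrin of mature myeloid cells, rose from 11.9 ± 0.151 to 41.9 ± 0.206 CPM (mean ± SD, n = 3; edgeR adjusted p = 3.23e-27 and 8.35e-19). MPO, the granule peroxidase, and CEBPA, a myeloid transcription factor, had log2 fold changes of -2.61 and -0.62 (edgeR adjusted p = 5.17e-18 and 5.18e-12). The part of these markers in the members' differences was not tested. In bulk RNA a lower level in every cell and fewer expressing cells cannot be told apart.

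SAMD9L showed the widest difference of the 7 genes. Its levels were 5.55, 4.35 and 5.05 CPM in the control libraries and 85.1, 86.4 and 93.9 CPM in the knockdown libraries. Each knockdown library lay far above each control library, and the knockdown mean was 17.7-fold that of the controls. The log2 fold change was 4.15 (approximate standard error, SE, 0.07), at rank 31 from the highest among 14635 tested genes.

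SAMD9, its neighbour, started higher and differed less. Control libraries had 22.1, 23.5 and 21.7 CPM of SAMD9 and knockdown libraries 62.4, 63.8 and 65.3 CPM. The groups did not overlap, and within each group the libraries were close together. The mean was 2.84-fold that of the controls, a log2 fold change of 1.51 (approximate SE 0.05).

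The paralogs changed places. There were 0.252, 0.185 and 0.232 SAMD9L counts per SAMD9 count in the controls, against 1.36, 1.35 and 1.44 with the knockdown. This ratio is formed within each library and does not depend on how libraries are scaled. Per kilobase of exon, the mean ratio was 0.214 ± 0.0329 in the controls and 1.33 ± 0.0436 in the knockdown cells (SD, n = 3). SAMD9 was thus the more abundant transcript of the pair in every control library and SAMD9L in every knockdown library. Together the pair was at 26.8 to 27.8 CPM in the controls and at 147 to 159 CPM in the knockdown libraries.

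**Figure D1:**
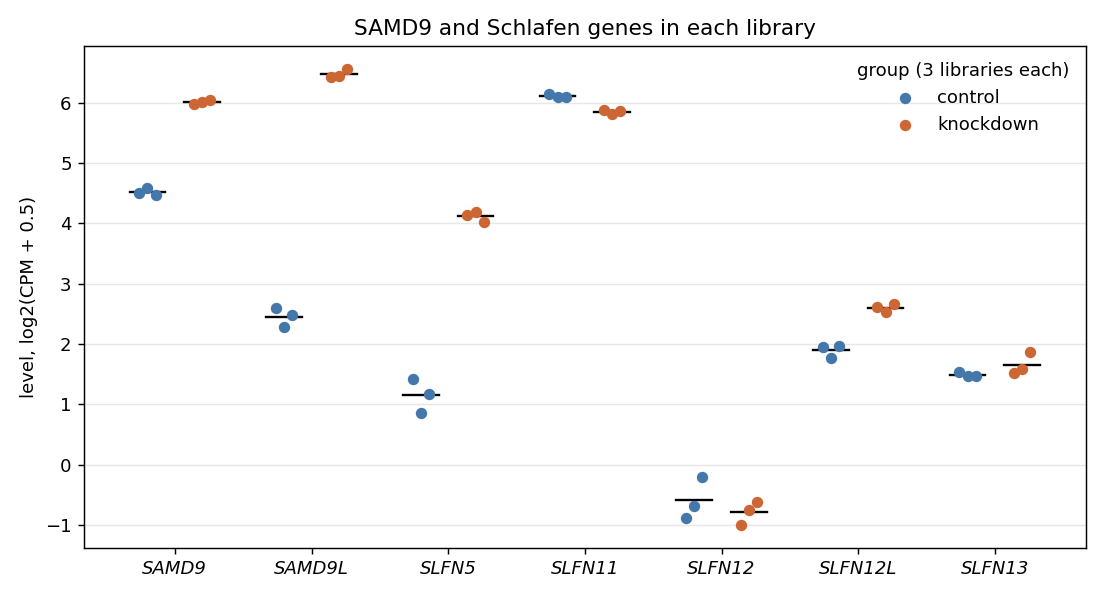
Level of each of the 7 genes in each library as log2(CPM + 0.5), with control libraries in blue, knockdown libraries in orange and a black bar at the mean of each group of 3. SAMD9, SAMD9L, SLFN5 and SLFN12L sit higher in all 3 knockdown libraries, SLFN11 sits lower, and SLFN12 and SLFN13 overlap between the groups.

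Among the Schlafen genes, SLFN5 stood out by the size of its difference. It was at 2.16, 1.31 and 1.76 CPM in the controls and at 17.0, 17.7 and 15.8 CPM in the knockdown cells. The lowest knockdown library was well above the highest control library. The mean was 9.58-fold that of the controls, with a log2 fold change of 3.26 (approximate SE 0.14), and ranked 72 from the highest. The control level rests on 56, 32 and 43 counts.

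SLFN11, the most abundant member in the controls, went the other way. Control libraries had 70.0, 67.6 and 68.0 CPM of it, knockdown libraries 58.3, 55.3 and 57.4 CPM. The groups did not overlap, but the difference was small. The knockdown mean was 0.831 of the control mean, a log2 fold change of -0.27 (approximate SE 0.05). Its size was reduced to -0.21 when libraries were scaled by their totals alone.

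SLFN12L, a gene close in sequence to SLFN12, was at 3.35, 2.91 and 3.41 CPM in the controls and at 5.62, 5.26 and 5.80 CPM in the knockdown cells. All 3 knockdown libraries were above the controls, by 1.72-fold on average, with a log2 fold change of 0.78 (approximate SE 0.15). ENSG00000267074, a transcript on the same strand inside an intron of SLFN12L, had 0.309 ± 0.0336 CPM without the knockdown and 0.798 ± 0.06 CPM with it (mean ± SD, n = 3). It rests on 7 to 8 counts in a control library and 16 to 19 in a knockdown library, and it passed the filter on low counts only through the knockdown libraries, so its values are a description.

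SLFN13 and SLFN12 had overlapping groups. SLFN13 was at 2.39, 2.25 and 2.26 CPM in the controls and 2.37, 2.50 and 3.15 CPM in the knockdown cells, where replicate 3 was the highest. Its log2 fold change was 0.21 (approximate SE 0.20), and 0.08 without knockdown replicate 3. SLFN12 was close to undetected and did not pass the filter on low counts. Its counts were 1, 3 and 9 without the knockdown and 0, 2 and 3 with it. The sums were 13 (95% exact Poisson interval 6.92 to 22.2) and 5 (1.62 to 11.7), intervals that overlap and cover counting error only.

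Of the 7 genes, 6 passed the filter. Among these 4 were higher and 1 was lower by edgeR's quasi-likelihood test (adjusted p below 0.05), where 29.4% of all tested genes were higher, 30.5% were lower and 59.9% passed in either direction. The groups did not overlap for 5 of the 6, against 64.3% of all tested genes. Because the members were proposed from this same contrast, nothing is read from these counts.

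Between genes, levels were compared per kilobase of exon. In the controls the order ran from SLFN11 at 11.5 ± 0.212 CPM per kilobase through SAMD9 at 3.27 ± 0.136, SAMD9L at 0.698 ± 0.085, SLFN12L at 0.67 ± 0.0566, SLFN13 at 0.247 ± 0.00835 and SLFN5 at 0.163 ± 0.0396 to SLFN12 at 0.0497 ± 0.0483 (SD, n = 3). SAMD9L and SLFN12L overlapped in their libraries, and every other pair of neighbours in this order was separate. In the knockdown cells SAMD9L came first at 12.4 ± 0.669, followed by SLFN11 at 9.53 ± 0.262 and SAMD9 at 9.31 ± 0.207 CPM per kilobase (SD, n = 3). The libraries of SLFN11 and SAMD9 overlapped there. SLFN5 moved from the sixth to the fourth place, at 1.57 ± 0.0856, above SLFN12L at 1.16 ± 0.0571 CPM per kilobase (SD, n = 3). With the length of the longest transcript in place of all exons, SLFN12L came before SAMD9L in the controls and before SLFN5 in the knockdown cells.

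**Figure D2:**
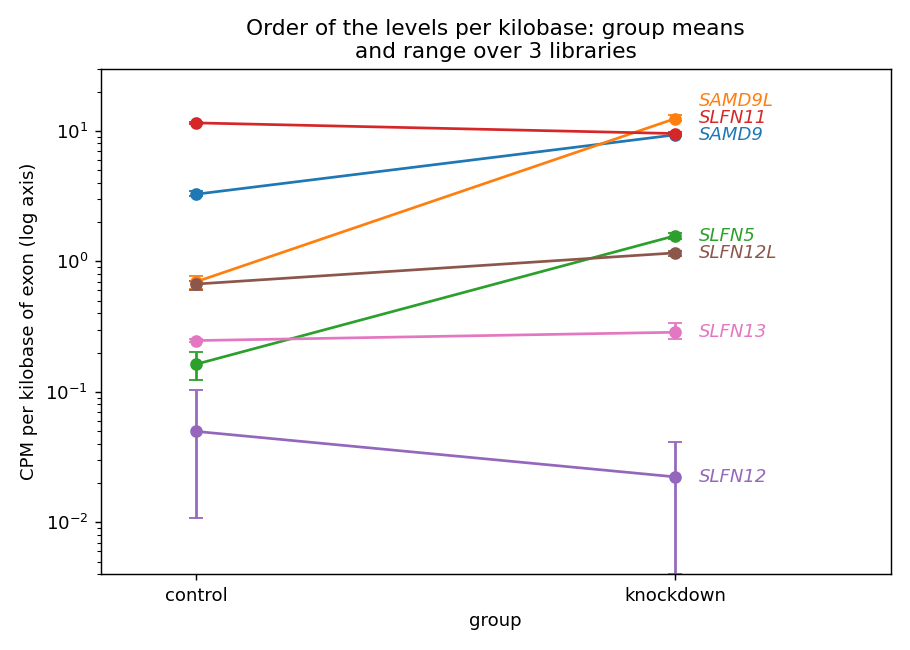
Mean level per kilobase of exon in each group on a log axis, with bars from the lowest to the highest of 3 libraries; the lower bar of SLFN12 in the knockdown group, where a library had 0 counts, ends at the bottom of the axis. SAMD9L climbs from the third place to the first, and SLFN5 crosses SLFN13 and SLFN12L.

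The summed level of the 5 Schlafen genes was 76.0 ± 1.86 CPM in the controls and 82.1 ± 1.26 CPM with the knockdown (SD, n = 3), while its make-up differed. SLFN11 gave 89.8, 91.1 and 89.7% of the Schlafen counts in the control libraries, but 70.0, 68.4 and 69.7% in those of the knockdown. SLFN5 gave 2.77, 1.77 and 2.33% of them in the controls, against 20.4, 21.9 and 19.2% in the knockdown cells. These shares are formed within a library and are independent of scaling. They are shares of counts and are not corrected for length, with 10709 exon bases for SLFN5 and 5982 for SLFN11. The share of SLFN12L was 4.24 ± 0.29% in the controls and 6.77 ± 0.266% in the knockdown cells, and that of SLFN13 was 3.03 ± 0.0458 and 3.25 ± 0.505% (SD, n = 3).

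**Figure D3:**
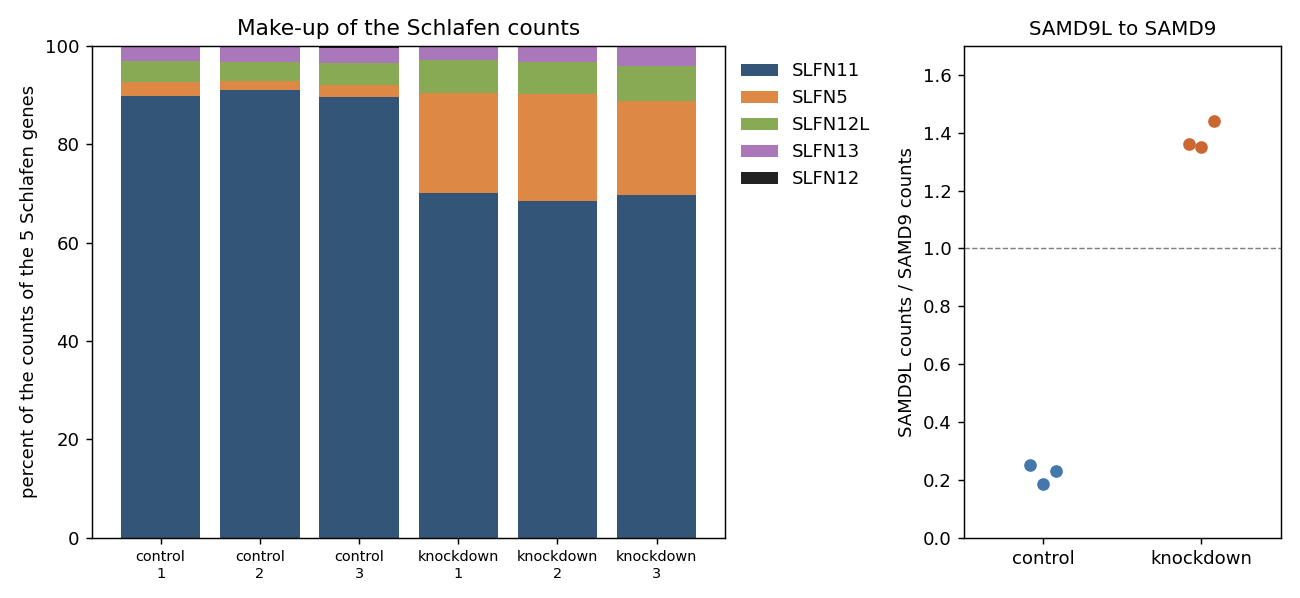
Left, percent of the counts of the 5 Schlafen genes given by each gene in each library. Right, SAMD9L counts divided by SAMD9 counts in each library, with a dashed line at equal counts; the SLFN11 share is near 90% in the controls and near 70% in the knockdown libraries, and the ratio lies below 1 in all controls and above 1 in all knockdown libraries.

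SLFN14 and SLFNL1 are Schlafen genes outside the 7. SLFN14, which encodes a ribosome-associated nuclease and lies next to SLFN12L, did not pass the filter. Its counts were 1, 8 and 2 without the knockdown and 14, 11 and 7 with it, sums of 11 (95% exact Poisson interval 5.49 to 19.7) and 32 (21.9 to 45.2). SLFNL1, a distant relative on another chromosome, went from 4.26 ± 0.375 to 2.91 ± 0.364 CPM (mean ± SD, n = 3), and its log2 fold change was -0.55 (edgeR adjusted p = 0.00598).

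The genes around both loci did not share the sizes seen in SAMD9L and SLFN5. Of the 5 nearest genes on each side of the SAMD9 pair, 8 were tested, of which 3 rose and 1 fell, counts to be read beside the 29.4 and 30.5% of all tested genes. CDK6, the cell cycle kinase, rose by 0.55 and its antisense transcript CDK6-AS1 by 0.63 on the log2 scale (edgeR adjusted p = 6.46e-15 and 9.25e-06), and RBM48 by 0.56 (edgeR adjusted p = 7.93e-06). CDK6 and CDK6-AS1 overlap at their ends. BET1, a vesicle transport gene, had a log2 fold change of -0.46 (edgeR adjusted p = 1.03e-04). FAM133B, VPS50 and GNG11 were among those that did not pass, with log2 fold changes of -0.11, -0.08 and 0.41.

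Within and around the Schlafen cluster 12 other genes had a row and 7 were tested. RFFL, a ubiquitin ligase gene, rose by 0.49 (edgeR adjusted p = 2.21e-05), and the values of the intronic transcript of SLFN12L are given above. NLE1, a ribosome assembly gene near SLFN5, had a log2 fold change of -0.25 (edgeR adjusted p = 9.29e-05), and AP2B1, a clathrin adaptor gene, of -0.27 (edgeR adjusted p = 3.36e-08). RAD51D and SNHG30 were among those that did not pass, at -0.06 and -0.24. The log2 fold changes of SLFN5 and SLFN11, which are adjacent members, were 3.26 and -0.27.

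**Figure D4:**
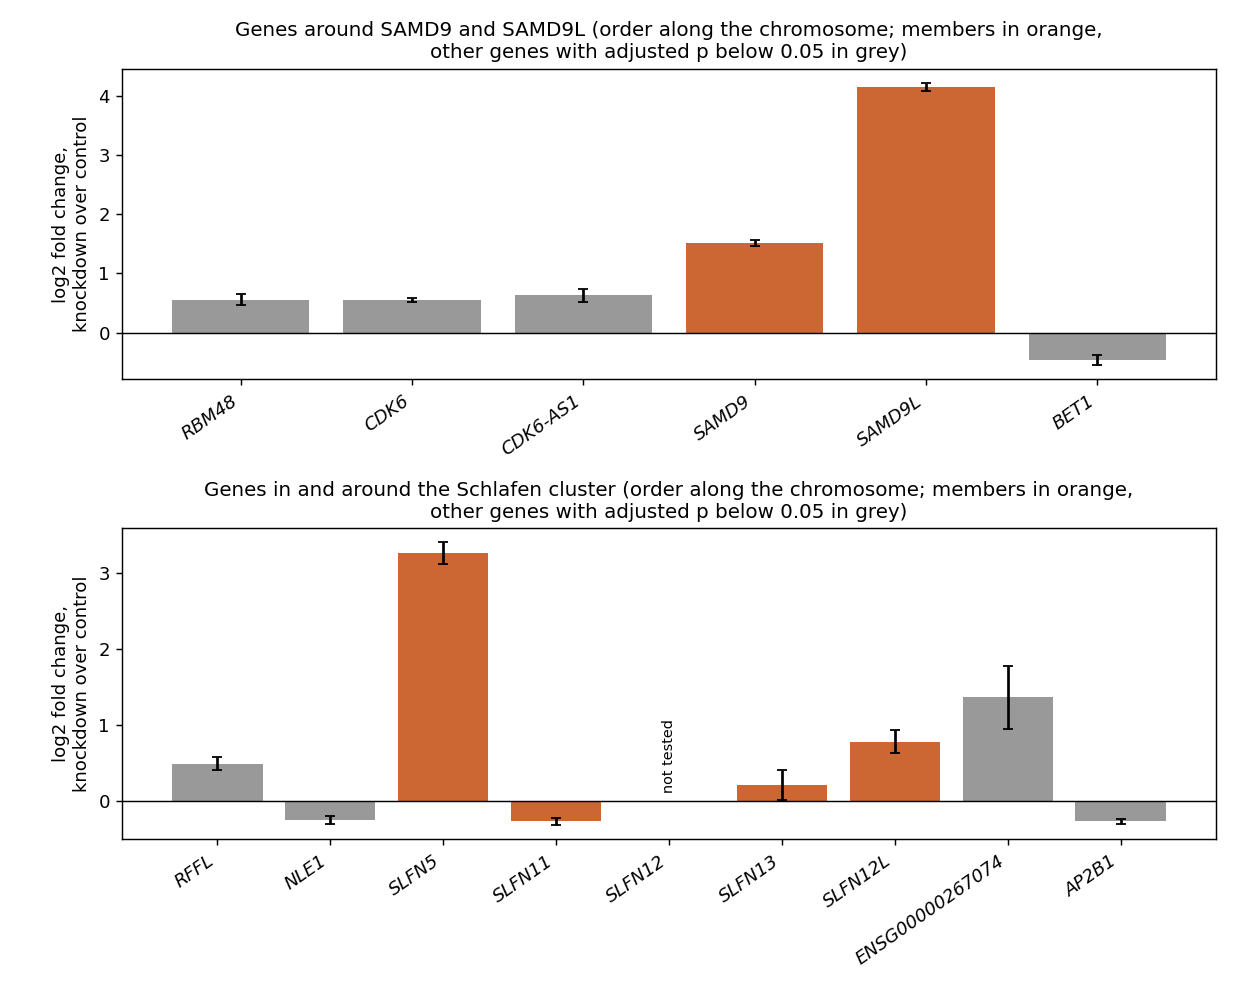
Log2 fold change of knockdown over control for the members (orange) and the genes around them with an edgeR adjusted p below 0.05 (grey), in their order along the chromosome, with bars for the approximate standard error. SAMD9L, SAMD9 and SLFN5 stand above the neighbouring genes drawn, and SLFN11 is near NLE1 and AP2B1 in size. ENSG00000267074, drawn in grey, passed the filter on low counts only through the knockdown libraries and is a description.

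For each tested member, the genes most like it were those with the smallest Euclidean distance between centred log2(CPM + 0.5) profiles over the 6 libraries, among 12043 genes. Such a profile is set mostly by the difference between the groups. For SAMD9L these were SUCNR1, EVPL and DDX60, at distances of 0.204, 0.258 and 0.342. For SLFN5 they included MX2 and OASL, at 0.27 and 0.293. For SAMD9 they were TEC, ACP3 and STK40, at 0.0797 to 0.0936. For SLFN11 they were RBBP7, HNRNPUL2 and DNAJA3, at 0.0289 to 0.0374. For SLFN12L they were H2BC4, ZNF680 and LINC01226, and for SLFN13 RP9, RAD52 and LTN1, at 0.0646 to 0.094.

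Other genes that act on RNA or translation in the antiviral response mostly rose. Of 20 tested genes in this list 17 rose and 0 fell in edgeR, also 0 at an unadjusted p below 0.05 and 0 in DESeq2. Over all tested genes 29.4% rose and 30.5% fell. The list was chosen with earlier results of these data known, so its counts are a description. OAS3 and IFIT5, counted among those that rose, passed the filter on low counts only through the knockdown libraries. The median log2 fold change, which includes them, was 2.11, against a median of 0.00 over all tested genes. The oligoadenylate synthetases OAS1 and OAS2, which make the activator of RNase L, had log2 fold changes of 4.45 and 5.06 (edgeR adjusted p = 1.87e-22 and 4.36e-27). OAS3, of the same family, rests on 17, 6 and 11 counts in the controls. Its log2 fold change of 5.62 is therefore a description. EIF2AK2, the kinase PKR, which stops initiation when it binds double-stranded RNA, rose from 23.7 ± 1.83 to 137 ± 8.73 CPM (mean ± SD, n = 3; edgeR adjusted p = 2.22e-22). SAMD9L and SLFN5 lay within the range of this list and SAMD9 below its median. ZC3HAV1, ISG20 and N4BP1 did not pass, with log2 fold changes of -0.03, 0.48 and -0.05.

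Regulators of interferon signalling and of the myeloid lineage went both ways, 6 of 17 higher and 6 lower, with a median of 0.06. Over all tested genes 29.4% were higher and 30.5% lower, so these shares are near the background. With library totals alone, and likewise with a filter of at least 5 CPM in 3 libraries, 9 were higher and 6 lower. STAT2 and IRF9, which are parts of the factor that binds the interferon response element, rose by 0.95 and 1.59 on the log2 scale (edgeR adjusted p = 9.85e-17 and 8.75e-14). IRF8, a myeloid regulator, had a log2 fold change of -0.63 (edgeR adjusted p = 6.06e-17). ETS1 and FLI1, ETS factors known to act on SLFN11, were named after their values were seen. In control libraries the level of ETS1 was 8.59 ± 0.692 CPM and in knockdown libraries 2.13 ± 0.252 CPM, and those of FLI1 were 78.9 ± 2.40 and 82.2 ± 1.61 CPM (mean ± SD, n = 3).

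Of 12 tested genes for known partners of Schlafen proteins, 8 fell and 1 rose, beside 30.5 and 29.4% of all tested genes, and their median log2 fold change was -0.15. With libraries scaled by their totals alone 6 fell and 2 rose. DDB1, a subunit of the ubiquitin ligase complex that SLFN11 is reported to bind, fell from 333 ± 8.79 to 138 ± 3.61 CPM (mean ± SD, n = 3; edgeR adjusted p = 6.19e-22). Its substrate CDT1, a replication licensing factor, had a log2 fold change of -0.70, and RPA1 and RPA3, subunits of the single-strand DNA binding complex that recruits SLFN11, of -0.28 and -0.60 (edgeR adjusted p = 2.10e-12, 2.12e-08 and 5.53e-07). PDE3A, the partner of SLFN12, did not pass the filter and was at 0.0796 ± 0.0374 and 0.316 ± 0.131 CPM (SD, n = 3). PDE3B, its relative, rose by 0.19 (edgeR adjusted p = 9.69e-04).

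The list of tRNA enzymes held genes that charge or modify the tRNAs for leucine and phenylalanine, the kinds that Schlafen and SAMD9 nucleases are known to cut. Here 7 of 16 fell and 2 rose, beside 30.5 and 29.4% of all tested genes, with a median of -0.05. With library totals alone 5 fell and 3 rose. LARS1, the leucyl-tRNA synthetase, and FARSA and FARSB, the subunits of phenylalanyl-tRNA synthetase, had log2 fold changes of -0.44, -0.42 and -0.43 (edgeR adjusted p = 1.08e-12, 2.48e-11 and 1.93e-10). FTSJ1, which methylates the anticodon loop, had one of -0.46 (edgeR adjusted p = 8.25e-09). TYW1, an enzyme of wybutosine synthesis, and ANGEL2, which removes cyclic phosphates from RNA ends, rose by 0.25 and 0.21 (edgeR adjusted p = 0.00155 and 0.00386).

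Of 14 genes that sense or clear stalled ribosomes 7 fell and 4 rose, beside 30.5 and 29.4% of all tested genes. Their median was -0.11. With library totals alone 5 fell and 5 rose. RACK1, a ribosomal scaffold protein, and the helicase gene ASCC3 had log2 fold changes of -0.31 and -0.54 (edgeR adjusted p = 1.64e-11 and 3.49e-11). ZNF598, which marks collided ribosomes, and MAP3K20, the kinase of the ribotoxic stress response, had -0.45 and -0.27 (edgeR adjusted p = 2.95e-09 and 7.42e-07). ASCC2 and EIF4E2 rose, by 0.26 and 0.21 (edgeR adjusted p = 4.05e-06 and 2.61e-05).

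SAMD9L is also known for a part in the fusion of early endosomes that carry cytokine receptors. Of 13 endosome fusion genes 8 rose and 3 fell, beside 29.4 and 30.5% of all tested genes, and their median was 0.13. The tethering subunit VPS11 and the GTPases RAB5A and RAB5B rose by 0.67, 0.73 and 0.28 (edgeR adjusted p = 2.53e-12, 3.09e-12 and 4.72e-07). RAB7A, the late endosome GTPase, and RABEP1, a RAB5 effector, had log2 fold changes of -0.27 and -0.30 (edgeR adjusted p = 1.08e-08 and 4.83e-06).

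**Figure D5:**
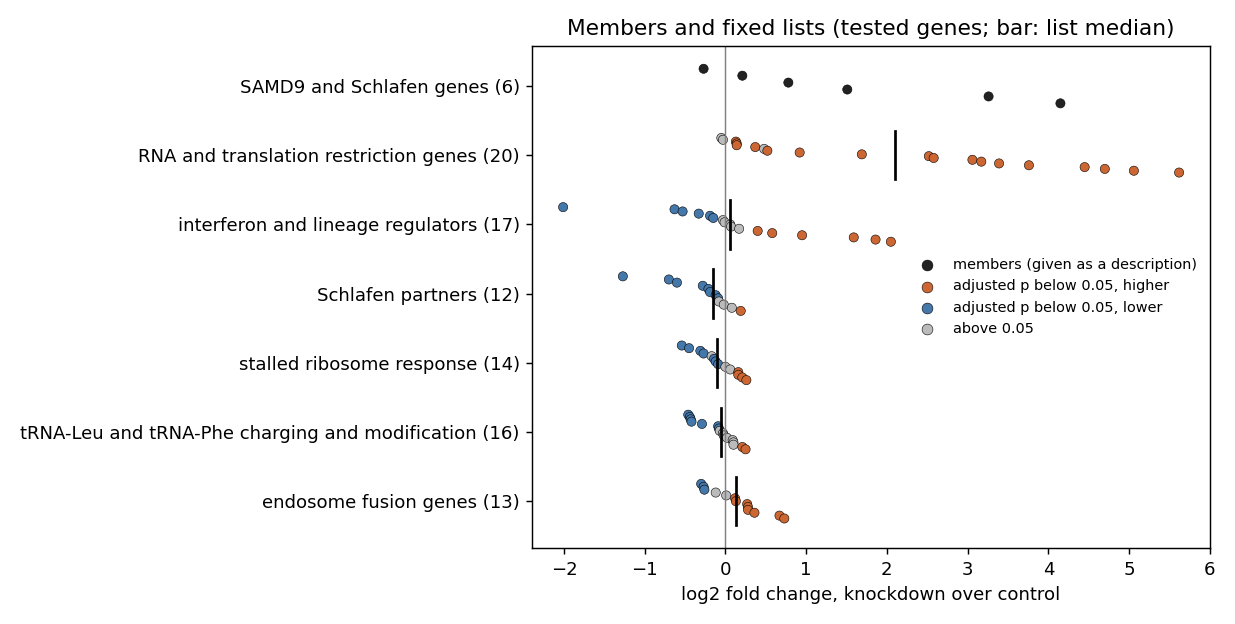
Log2 fold change of knockdown over control for the 6 tested members (black) and for the tested genes of 6 lists, coloured by direction where the edgeR adjusted p was below 0.05 and grey otherwise, with a bar at each list's median. The list of RNA and translation restriction genes reaches above 5, and the other lists lie around 0. In that list OAS3 and IFIT5 passed the filter on low counts only through the knockdown libraries.

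Markers of other cell types were at low levels apart from PECAM1 and NKG7. Of 16 such markers 10 had a row and 5 were tested, and their summed level ran from 123 to 127 CPM in the controls and from 95.7 to 98.9 CPM in the knockdown cells. CD3E, MS4A1 and EPCAM, which define T cells, B cells and epithelium, were at 0 in all control libraries. In the knockdown group they had 3, 5 and 2 counts, each in a single library. The knockdown means of 0.0465, 0.082 and 0.0303 CPM rest on these alone. CD79A, which passed the filter only through the knockdown libraries, was at 0.257 ± 0.174 and 0.833 ± 0.221 CPM (mean ± SD, n = 3). PECAM1 fell from 93.9 ± 0.726 to 66.4 ± 1.71 CPM (mean ± SD, n = 3; edgeR adjusted p = 5.18e-11). The part of these markers in the members' differences was not tested.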

How the data were processed

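Total RNA of 3 control and 3 ENO1 knockdown MV4-11 libraries was sequenced after TruSeq preparation, per the labels' protocols. HISAT2 2.0.5 and hg38 were used, per the submitters' processing notes. The counter, the annotation and the strand setting are not stated in the sources used here. The authors deposited whole-number counts per Ensembl gene, not normalized, in a single table. Columns were matched to samples by the group and replicate number in their names.

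The test was edgeR 4.0.16 under R 4.3.3 (TMM, filterByExpr, robust quasi-likelihood test, two-sided, Benjamini-Hochberg over 14635 genes, threshold 0.05). Approximate standard errors come from the fold change and the F statistic (log2 fold change over the root of F). Within groups, chi-square over degrees of freedom was 2.06 to 3.95 per library pair, above sampling noise. The procedure was tested on simulated data. Symbols came from the reference name table, and positions, lengths and shared sequence from GENCODE 29. Promoters are RefSeq's.

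The members and lists were chosen with earlier results of these data known. The rule for named genes took the 7 members and ENO1, up to 4 called genes per list by adjusted p and up to 2 called against its majority, the 5 nearest genes on each side of both loci, other Schlafen genes, and the 3 nearest patterns of each member. Some lists' examples are summarised as counts, and some genes the rule names are not reported here. Alternatives were RLE and library-total scaling, no filter, at least 5 CPM in 3 libraries, DESeq2 1.42.0, a replicate block, single libraries left out, a threshold of 0.01, the longest transcript as length and a motif mismatch.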

Additional observations from a re-analysis of the deposited data

How the results depend on the processing

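The 4 members called higher and the 1 called lower had the same counts under every alternative run. Without control replicate 2 and knockdown replicate 3, an alternative added after the data were seen, the log2 fold changes were 4.01 for SAMD9L, 0.69 for SLFN12L and 0.07 for SLFN13. Over single libraries left out, SAMD9 ranged from 1.49 to 1.54, SAMD9L from 4.06 to 4.23, SLFN5 from 3.09 to 3.44, SLFN11 from -0.29 to -0.25, SLFN12L from 0.72 to 0.83 and SLFN13 from 0.08 to 0.29. With library totals only, 4900 genes were higher and 3843 lower. With the replicate block, 4165 genes were higher and 4325 lower, against 4309 and 4458 without it; same-numbered libraries deviated with correlations of -0.000325, 0.00249 and -0.0456, so the numbers do not pair them, not every library correlated best with its own number, and the block changed no count by over 1.5 times.

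Genes called among the Schlafen partners as higher were 2 with library totals only, 2 with the 5 CPM filter and 2 without the libraries that stood apart, and 1 to 2 over single libraries left out. Among markers of other cell types 0 were higher with the 5 CPM filter, which removed CD79A, and 1 to 2 over single libraries left out. With 1 mismatch allowed, 4 of 5 member promoters matched the paired GAAA blocks, 5 matched TTCNNNGAA and 4 matched CCGGAA, as did 33.4, 66.4 and 89.2% of all windows. Depth limits SLFN12 and SLFN14, and the fold of SLFN5 rests on few control counts.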
